A study of Mus musculus with 2 samples.

Results

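Translation initiation factors are the proteins that bring the initiator tRNA, the small ribosomal subunit and the capped mRNA together and find the start codon. The genes described here are the rows of the deposited table whose symbol begins with Eif and a digit, without the eIF2 kinase genes Eif2ak2 and Eif2ak3. This gave 52 genes of 14774 listed, chosen by symbol and not by any measured value. The set also takes in genes that act on the factors or only share the name, among them the kinases Eif2ak1 and Eif2ak4, the eIF4E-binding proteins and the helicase of the exon junction complex, Eif4a3.

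RNA came from cells labelled as splenic CD4+CD25+ regulatory T cells (Tregs) of C57BL/6 mice, which had been kept for 5 days together with an SV40-transformed mouse endothelial line, SVEC4-10. In the control co-culture the SVEC4-10 cells had received a control oligonucleotide, and in the knockdown co-culture small interfering RNA against Capns1, the small regulatory subunit of the calpain proteases. Each condition had 1 library, here the control library and the knockdown library, with 48100576 and 47300284 reads deposited. The comparison asks how RNA of the co-cultured cells differed with the treatment of their endothelial partner. With 1 library per group there is no replicate check and no p-value. The 95% intervals below are exact Clopper-Pearson intervals for the ratio of reads in these libraries and cover counting error only, so "higher" and "lower" describe the libraries and not the conditions. Every direction rests on reading the column prefixes Cont and Si as the control and the interfering RNA.

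Markers of the labelled cell type were low in both libraries. The 5 Treg markers (Foxp3, Il2ra, Ctla4, Ikzf2 and Tnfrsf18) were all measured and summed to 28.5 and 26.7 in library-scaled read counts (CPM), control library first, against 2690 and 2400 CPM for 7 B cell markers, of which 6 were lower and 0 higher. Several marker lists differed between the libraries. Of the macrophage markers 8 of 9 were measured, all 8 lower, with sums of 1119 and 791 CPM. The 6 neutrophil markers, 5 higher and 1 lower, summed to 283 and 408 CPM, and 5 of 6 erythroid markers, all 5 lower, to 2580 and 2321 CPM. The remaining lists differed little in their sums. For T cells 6 of 7 markers, 1 higher and 2 lower, summed to 158 and 159 CPM. For endothelial cells 3 of 7, 1 higher and 1 lower, summed to 98.1 and 95.2 CPM. The 7 markers of matrix-producing cells, 1 higher and 1 lower, summed to 2088 and 2044 CPM. The part of this cell mixture in the values below was not tested. In bulk RNA, fewer cells of a type and less RNA per cell cannot be told apart.

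Initiation begins when eIF2, carrying GTP and the initiator tRNA, joins the small subunit with eIF1, eIF1A, eIF3 and eIF5. The mRNA is delivered by the cap-binding eIF4E, the scaffold eIF4G and the helicase eIF4A, and eIF5B then joins the large subunit. Signalling acts on the process at eIF4E, which 4E-binding proteins sequester unless mTORC1 phosphorylates them, and at eIF2, which stress-activated kinases phosphorylate and so block its recharging by eIF2B.

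Most initiation factor genes were slightly higher in the knockdown library. The interval lay above 1 for 35 of the 52 genes, where 24.2% of all listed genes did so, and below 1 for 5, where 22.7% of all listed genes did so. The remaining 12 intervals included 1. The median log2 fold of the 52 genes was 0.09, beside 0.00 for all listed genes, and it ran from -0.19 for Eif5a2 to 0.28 for Eif4ebp1. The fold was above 1 for 42 of the 52 genes, or 80.8%, beside 50.2% of all listed genes. Both counts depend on depth, and the initiation factor genes were abundant, with a median of 123 CPM in the control library beside 29.8 CPM over all listed genes. Among genes at least as abundant as the median member, 22 of 26 members had intervals above 1, beside 38.3% of all such genes, and 88.5% had folds above 1, beside 50.8%.

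All differences were small. None of the 52 genes was 2-fold apart, beside 0.142% of all listed genes, and none was 1.5-fold apart, beside 1.51%. Among the 1961 listed genes at least as abundant as the median member, 0 were 2-fold apart. At least 1.2-fold higher were Eif4ebp1 and Eif3g, 2 genes, where 4.65% of all listed genes passed that mark, and 0 were 1.2-fold lower, where 6.74% passed it. At 1.1-fold, 18 genes were higher and 2 lower, Eif4g3 and Eif5a2. Of all listed genes, 15.2% were higher by that mark and a further 15.2% were lower. The spread of log2 folds had an SD of 0.10 over the 52 genes and of 0.20 over all listed genes. The smaller fold marks and the SDs were not matched for abundance, and folds of scarcer genes spread more by counting error. Together the 52 genes held 1.15% of the listed reads in the control library and 1.21% in the knockdown library.

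**Figure D1:**
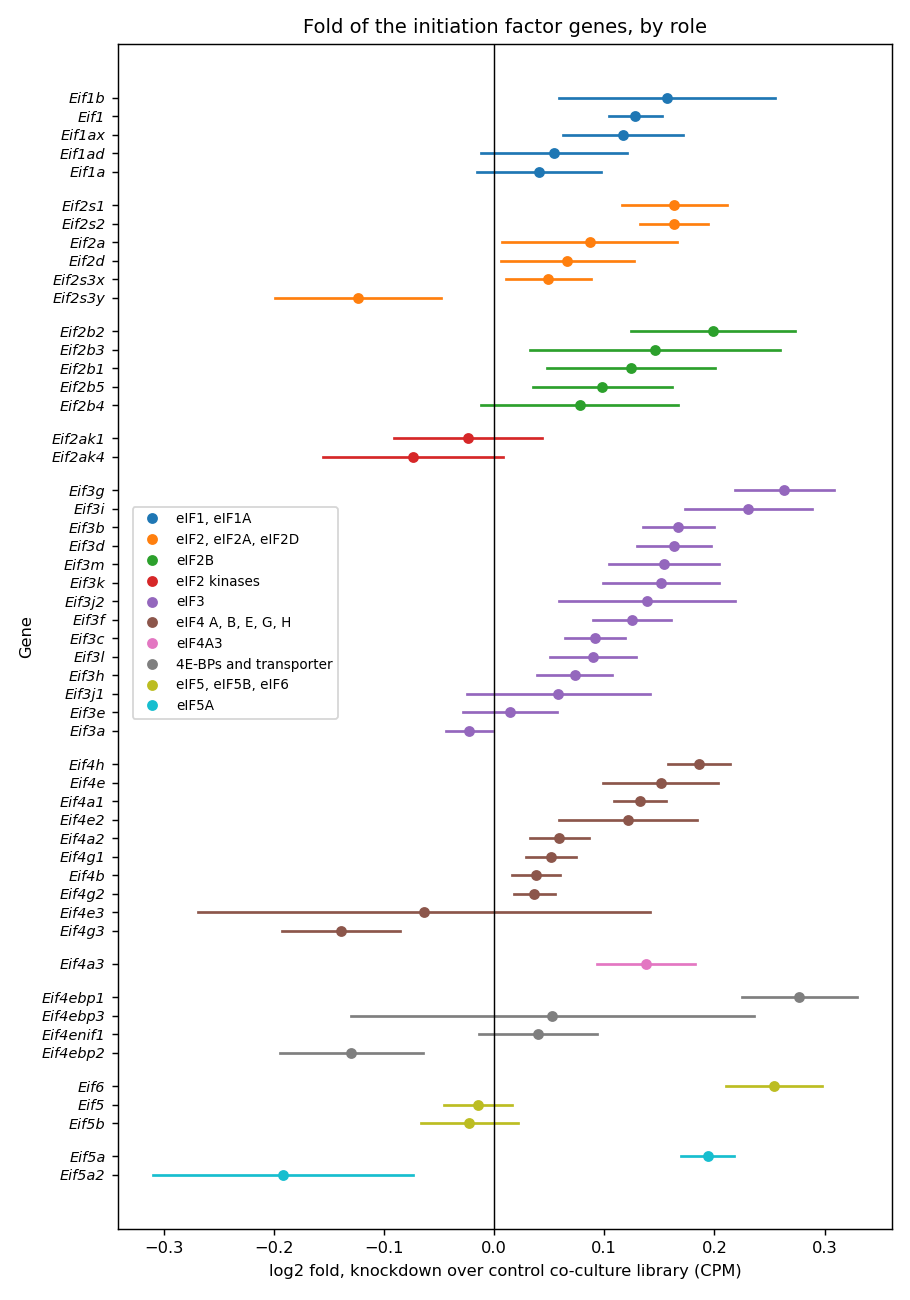
Log2 ratio of CPM values, knockdown library over control library, for each of the 52 genes (points) with its exact 95% interval for counting error (bars), grouped by role and ordered by fold within a role. Of the 52 intervals 35 lie to the right of 0 and 5 to the left, and no point passes 0.28 or -0.19.

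Among the factors that hold the scanning ribosome open, Eif1, which guards start codon selection, had 26974 reads in the control library and 28772 in the knockdown library, or 563 and 615 CPM. Its fold was 1.09 (95% interval 1.07 to 1.11), a small gap that is wider than counting error at this depth. Eif1b, a close relative, had 1614 and 1756 reads and a fold of 1.11 (1.04 to 1.19). Of the eIF1A genes, the X-linked Eif1ax was higher at 1.08 (1.04 to 1.13), and the interval of Eif1a, at 1.03, reached from 0.990 to 1.07. Eif1ad, a related gene outside the core machinery, had an interval that included 1. After removal of a trend of log2 fold on transcript length and GC content, the interval of Eif1b came to include 1 and that of Eif1a lay above it. The way reads of such similar genes were assigned is not known here, so the division between them is uncertain.

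The 3 subunits of eIF2 are encoded by Eif2s1 (alpha, the phosphorylated subunit), Eif2s2 (beta) and the gamma pair Eif2s3x and Eif2s3y. Eif2s1 had 6794 reads in the control library and 7427 in the knockdown library, a fold of 1.12 (95% interval 1.08 to 1.16). Eif2s2 had 16153 and 17657 reads and a fold of 1.12 (1.096 to 1.14). The alpha and beta genes were thus higher by like amounts, while of the gamma genes Eif2s3x was higher by less and Eif2s3y was lower. Eif2s3x had 10992 and 11101 reads and stood at 1.03 (1.01 to 1.06), while Eif2s3y, its Y-linked copy, had 3003 and 2690 reads and was lower, at 0.918 (0.871 to 0.967). Eif2a and Eif2d, which can deliver tRNA to the ribosome without eIF2, were higher at 1.06 (1.005 to 1.12) and 1.05 (1.005 to 1.09). The intervals of Eif2s3x, Eif2a and Eif2d came to include 1 when the libraries were scaled by total counts or the upper quartile.

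The exchange factor eIF2B, which reloads eIF2 with GTP, has 5 subunits. All 5 genes had folds above 1, from 1.06 for Eif2b4 to 1.15 for Eif2b2, and 4 intervals lay above 1, that of Eif2b4 reaching down to 0.992. Eif2b2, the beta subunit, had 2780 reads in the control library and 3114 in the knockdown library, the gap farthest from equality in the complex. Eif2b5, the catalytic epsilon subunit, had 3980 and 4158 reads, and its interval came to include 1 after removal of the length and GC trend. Per kilobase (kb) of transcript the 5 genes stood between 6.76 CPM (Eif2b3) and 36.2 CPM (Eif2b2) in the control library, and all but Eif3j1 and Eif3j2 of the eIF3 genes stood above that range.

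Neither of the eIF2 kinase genes in the set was higher. Eif2ak1, the haem-regulated kinase, had 3675 reads in the control library and 3529 in the knockdown library, a fold of 0.984 (95% interval 0.939 to 1.03). Eif2ak4, the kinase Gcn2 that senses uncharged tRNA, had 2529 and 2346 reads and a fold of 0.951 (0.898 to 1.006). Both intervals included 1, but that of Eif2ak4 lay below 1 with total counts (0.891 to 0.998) or upper-quartile scaling (0.890 to 0.996).

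The scaffold eIF3 binds the small subunit and links it to eIF4G. Of its 14 genes 11 had intervals above 1 and 1 below, with a median log2 fold of 0.13. Eif3g, an RNA-binding subunit, had 7346 reads in the control library and 8605 in the knockdown library, a log2 fold of 0.26 (95% interval of the fold 1.16 to 1.24). Eif3i had 4511 and 5166 reads and a fold of 1.17 (1.13 to 1.22). Eif3b, the scaffold that binds both of these subunits, had 14997 and 16434 reads and a fold of 1.12 (1.098 to 1.15). These 3 had the highest log2 folds of the eIF3 genes, and after removal of the length and GC trend they stood at 0.18, 0.21 and 0.13, beside 0.17 for Eif3m.

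The other large block of eIF3 is an octamer of subunits with PCI or MPN domains, encoded by Eif3a, Eif3c, Eif3e, Eif3f, Eif3h, Eif3k, Eif3l and Eif3m. This division was made after the values were seen, so the gap between the blocks is a description. The octamer genes had log2 folds from -0.02 to 0.15 with a median of 0.09, beside 0.17 to 0.26 for Eif3b, Eif3g and Eif3i. After removal of the length and GC trend the ranges overlapped. They were then 0.02 (Eif3h) to 0.17 (Eif3m) for the octamer and 0.13 (Eif3b) to 0.21 (Eif3i) for the others. Eif3a, the subunit on which the complex is built, had 37806 and 36314 reads and a fold of 0.984 (95% interval 0.970 to 0.999), the 1 eIF3 interval below 1, but after removal of the length and GC trend its log2 fold turned from -0.02 to 0.03, with an interval of the fold from 1.005 to 1.03. Eif3e had 8924 and 8798 reads and an interval from 0.981 to 1.04, which lay above 1 after that removal, as did that of Eif3j1, while that of Eif3h came to include 1. Eif3d, which can bind the cap of certain mRNAs, stood outside both blocks at 1.12 (1.09 to 1.15), with 13505 and 14761 reads. Eif3j1 and Eif3j2, near-identical copies of the loosely bound subunit j, stood at 1.04 (0.983 to 1.10) and 1.10 (1.04 to 1.16). How reads were assigned between these copies is not known here, so the division between them is uncertain.

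Levels of eIF3 genes per kb of transcript were uneven. In the control library they ran from 9.02 CPM per kb for Eif3j1 to 225 CPM per kb for Eif3h, with a median of 97.5. Eif3c, Eif3d, Eif3b, Eif3f and Eif3l lay close together, between 93.5 and 129 CPM per kb. Eif3e and Eif3i were lower, at 45.2 and 40.5 CPM per kb. The length used was that of the longest annotated transcript, so a gene with a long rare transcript is set too low. For Eif3e that length was 4123 bases, while its longest coding transcript had 1506 bases. For Eif3i the lengths were 2323 and 1123 bases. The low place of both genes thus depends on the length used.

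**Figure D2:**
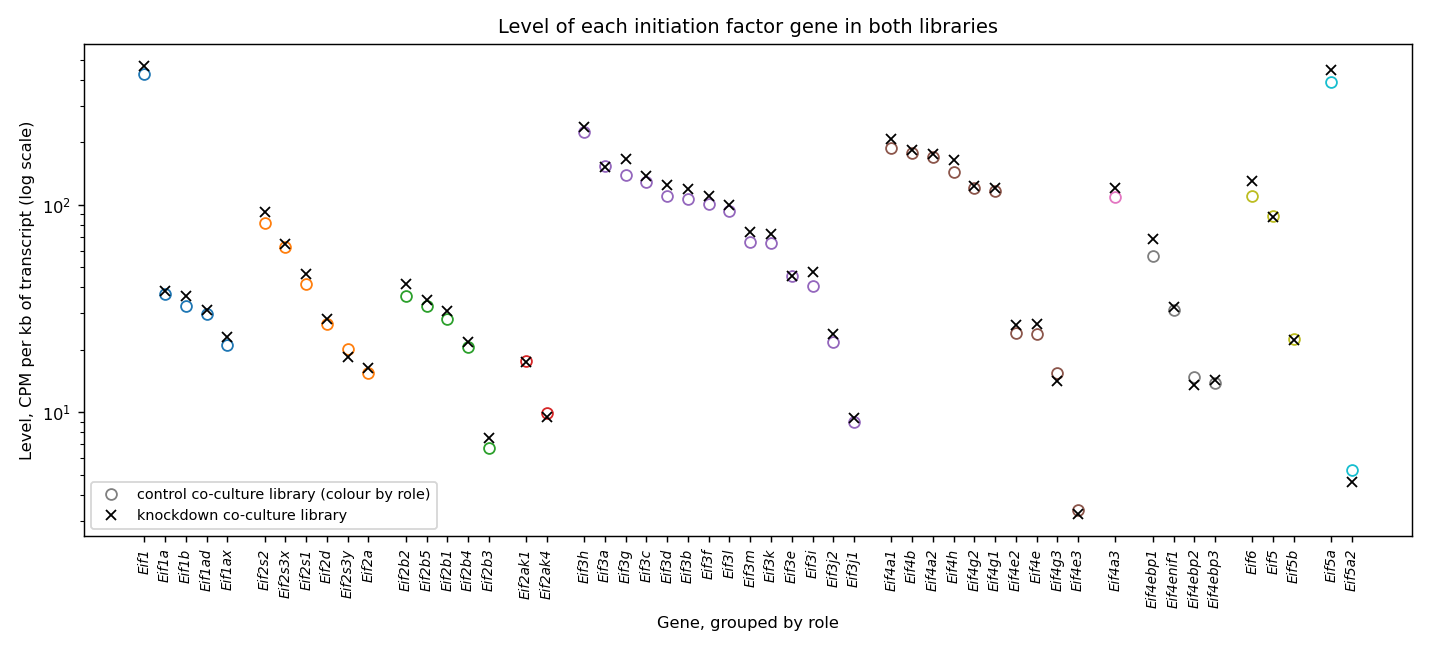
Level of each of the 52 genes in CPM per kb of the longest annotated transcript (log axis), in the control co-culture library (open circles, coloured by role) and the knockdown library (crosses), with 1 library each and no error bars. In the control library the levels run from 3.39 for Eif4e3 to 426 for Eif1, and the marks of a gene are at most 1.21-fold apart.

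The mRNA cap is bound by eIF4F, made of eIF4E, eIF4G and eIF4A, with eIF4B and eIF4H as helpers of the helicase. Of the 10 genes in this group 8 had intervals above 1 and 1 below. Eif4h had 18908 reads in the control library and 20992 in the knockdown library and the highest fold of the group, 1.14 (95% interval 1.12 to 1.16). Eif4e, the cap-binding subunit, had 5729 and 6209 reads and a fold of 1.11 (1.07 to 1.15). Eif4a1, the main helicase gene of growing cells, had 28644 and 30639 reads and a fold of 1.096 (1.08 to 1.11). The related Eif4a2 was closer to equality, at 1.04 (1.02 to 1.06), and Eif4b stood at 1.03 (1.01 to 1.04).

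The eIF4G scaffolds did not go one way. Eif4g1, the main scaffold, had 31472 reads in the control library and 31828 in the knockdown library, a fold of 1.04 (95% interval 1.02 to 1.05). Eif4g2, a relative that lacks the eIF4E-binding part, was the most abundant gene of all 52 by reads, with 46301 and 46342, and stood at 1.03 (1.01 to 1.04). Eif4g3 had 6042 and 5356 reads and was lower, at 0.908 (0.875 to 0.943). Of the further cap-binding genes, Eif4e2, which represses some mRNAs, was higher at 1.09 (1.04 to 1.14). Eif4e3 was the scarcest of the 52 genes, with 409 and 382 reads, and its interval reached from 0.830 to 1.10.

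Promoters were searched for the E-box CACGTG, the site bound by Myc and other helix-loop-helix factors, because Eif4e is a textbook Myc target. In the 250 bases before an annotated start, 9 of the 41 members with a RefSeq promoter entry held it, or 22.0%, beside 9.51% of the 11345 listed genes with an entry and 6.86% of all genes in the promoter table. The CACGTG letters are the same on both strands. Members with the motif had a median log2 fold of 0.15 and those with an entry but no motif one of 0.08. All listed genes with an entry had 0.01, both with and without the motif. Members without an entry are in neither median. Their log2 folds ran from -0.06 for Eif4e3 and 0.01 for Eif3e to 0.23 for Eif3i, 0.25 for Eif6 and 0.28 for Eif4ebp1. The medians thus leave out some of the highest members, and a link of the E-box to higher folds was not tested. The ETS motif CCGGAAG, searched on both strands and unable to overlap an E-box, was held by 12 of the 41 members, or 29.3%, beside 14.5% of listed genes and 7.83% of all genes. Members with an entry had medians of 0.12 with the ETS motif and 0.08 without, and listed genes with an entry had 0.03 with it and 0.00 without. A match is only a match of letters, and binding was not measured. The windows below are stretches of 60 bases that hold the E-box, all upstream of the start, for the 6 members whose window met no annotated exon, shown because they span the eIF3, eIF4 and eIF5A groups and include genes that were higher and 1 that was lower. They are from RefSeq on GRCm38.p6, 5′ to 3′ on the gene's strand, with the E-box in capitals. Where a gene has several annotated starts, the start nearest to an E-box was taken.
Eif4g1 (chr16:20672646-20672705, plus strand): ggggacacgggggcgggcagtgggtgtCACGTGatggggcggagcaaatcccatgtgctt
Eif4a1 (chr11:69672580-69672639, minus strand): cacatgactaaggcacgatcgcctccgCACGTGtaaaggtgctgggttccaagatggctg
Eif3f (chr7:108934320-108934379, plus strand): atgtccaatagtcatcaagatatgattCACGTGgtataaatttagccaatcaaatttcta
Eif3k (chr7:28981900-28981959, minus strand): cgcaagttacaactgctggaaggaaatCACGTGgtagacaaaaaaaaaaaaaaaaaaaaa
Eif5a (chr11:69921428-69921487, minus strand): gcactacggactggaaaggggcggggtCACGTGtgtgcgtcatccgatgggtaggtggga
Eif5a2 (chr3:28781133-28781192, plus strand): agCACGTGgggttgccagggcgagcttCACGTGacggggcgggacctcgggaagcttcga
The E-box nearest the start began 54 bases before it in Eif4g1, 189 in Eif4a1, 68 in Eif3f, 44 in Eif3k, 74 in Eif5a and 117 in Eif5a2. The other 3 members with the motif were Eif1b, Eif4e and Eif4h, each higher, and Eif1b, Eif5a and Eif5a2 held the ETS motif as well. Eif5a and Eif5a2 thus both held an E-box and differed in the direction of their folds.

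The genes that hold eIF4E in check had the widest range of log2 folds of the role groups, from -0.13 to 0.28. Eif4ebp1, whose product sequesters eIF4E when it is not phosphorylated, had 5430 control and 6422 knockdown reads, or 113 and 137 CPM. Its fold of 1.21 (95% interval 1.17 to 1.26) was the highest of the 52 genes. Eif4ebp2, a second such protein, had 4080 and 3640 reads and was lower, at 0.914 (0.874 to 0.956). Eif4ebp3 was scarce, with 491 and 497 reads and an interval from 0.914 to 1.18, and Eif4enif1, which carries eIF4E into the nucleus, had an interval from 0.990 to 1.07. Eif4a3, the helicase of the exon junction complex, was higher at 1.10 (1.07 to 1.13).

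At subunit joining, Eif6, which keeps the large subunit from joining too early, stood apart from its neighbours. Eif6 had 7898 reads in the control library and 9191 in the knockdown library, a fold of 1.19 (95% interval 1.16 to 1.23). Eif5, which triggers GTP hydrolysis by eIF2, had 17082 and 16502 reads and an interval from 0.969 to 1.01. Eif5b, the GTPase that joins the subunits, had 8470 and 8138 reads and an interval from 0.955 to 1.02. After removal of the length and GC trend the contrast was smaller, with log2 folds of 0.16 for Eif6, 0.02 for Eif5 and 0.07 for Eif5b, whose interval then lay above 1.

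Despite its name, eIF5A works mainly in elongation, where it helps ribosomes through stalling sequences, and it carries the modified residue hypusine. Eif5a had 27018 reads in the control library and 30159 in the knockdown library, a fold of 1.14 (95% interval 1.13 to 1.16). Eif5a2, its scarcer relative, had 1274 and 1089 reads and the lowest fold of the 52 genes, 0.876 (0.807 to 0.950). Dohh, which completes hypusine on eIF5A, had 2378 and 2967 reads and a fold of 1.28 (1.21 to 1.35), the highest of the elongation list.

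Related genes were also compared as shares of their pair's reads, a measure that does not depend on how the libraries are scaled. The 10 pairs were picked with their values known, and no share over comparable gene pairs was computed, so they are described one by one with exact 95% intervals. Eif4ebp1 made up 57.1% (56.1 to 58.1) of the reads of Eif4ebp1 and Eif4ebp2 in the control and 63.8% (62.9 to 64.8) in the knockdown library, the widest gap at 6.73 percentage points. Eif2s3x took 78.5% (77.9 to 79.2) and 80.5% (79.8 to 81.2) of its pair with Eif2s3y. Eif4g1 took 83.9% (83.5 to 84.3) and 85.6% (85.2 to 86.0) of its pair with Eif4g3. In both pairs the more abundant copy held the larger share in the knockdown library. The same held for Eif4a1 over Eif4a2, at 56.6% (56.1 to 57.0) and 57.8% (57.4 to 58.2), and for Eif5a over Eif5a2, at 95.5% (95.2 to 95.7) and 96.5% (96.3 to 96.7). In the pairs of Eif1 and Eif1b, Eif1ax and Eif1a, Eif3j2 and Eif3j1, Eif4e and Eif4e2, and Eif2ak1 and Eif2ak4 the intervals overlapped. The intervals do not cover error in the assignment of reads between similar genes.

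**Figure D3:**
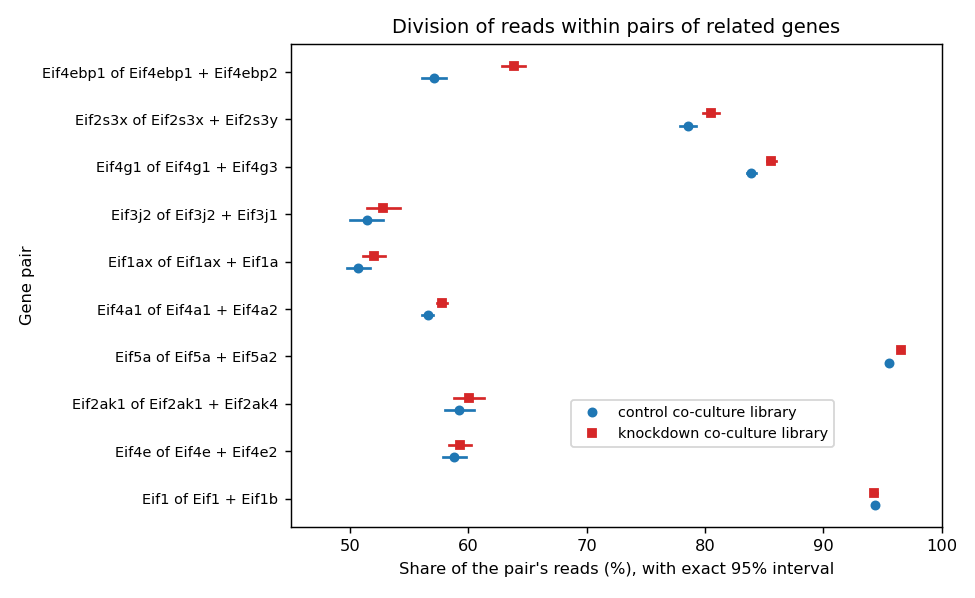
Share of a pair's reads (percent) held by the first-named gene in the control (blue circles) and knockdown library (red squares), with exact 95% binomial intervals (bars). Eif4ebp1 moves from 57.1% to 63.8% of its pair, and Eif1, near 94%, is the gene whose share differs least. The axis starts at 45%.

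Folds went with transcript length among these genes as they did among all genes. Over the 52 genes, Spearman's rho between the length of the longest transcript and the log2 fold was -0.61 (Pearson's r on log2 length -0.57), and over 13381 listed genes it was -0.32 (-0.24). These are descriptions across genes of the same 2 libraries, which are not independent replicates. Of the 5 lower genes, Eif5a2, Eif4ebp2, Eif4g3 and Eif3a had transcripts of 5027, 5784, 8134 and 5125 bases, and Eif2s3y one of 3114 bases. Eif4ebp1 had one of 1997 and Eif3g one of 1101 bases. The coding regions of Eif4ebp1 and Eif4ebp2 were alike in length, 354 and 363 bases, and their 3′ untranslated regions were 1563 and 5306 bases long. Eif5a and Eif5a2 had coding regions of 465 and 462 bases and 3′ untranslated regions of 633 and 4391 bases.

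The counts were also taken within strata of length. Among genes with a transcript shorter than the overall median of 3375 bases, 22 of 28 members had intervals above 1, beside 36.1% of all such genes, and the median log2 folds were 0.14 and 0.06. Among longer genes the medians were 0.04 for 24 members and -0.04 for all. After removal of that trend over all genes, the members' median was 0.08, with 36 intervals above 1, where 25.1% of all genes lay, and 4 below, where 19.1% lay. In that setting Eif4ebp1 stood at a log2 fold of 0.25, Eif4ebp2 at -0.09 and Eif5a2 at -0.13.

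**Figure D4:**
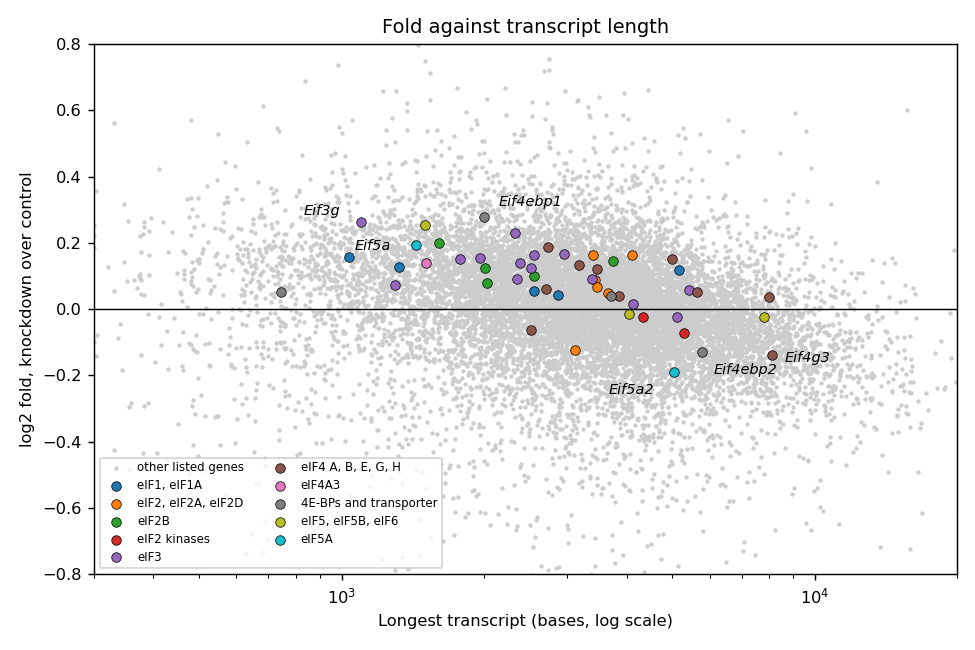
Log2 fold, knockdown library over control library, against the length of the longest annotated transcript (log axis) for the 52 genes (coloured by role) and the other listed genes with a transcript (grey). Longer transcripts have lower folds in both, and Eif4ebp2, Eif5a2 and Eif4g3 lie among the long ones, while 102 listed genes fall outside the plotted range.

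Other genes of translation were described from lists chosen with earlier results of these data known. Of 13 elongation genes, 11 had intervals above 1 and 0 below, with a median log2 fold of 0.15, Dohh being the highest and Eef2k, the kinase that inhibits elongation factor eEF2, the lowest at 0.932 (95% interval 0.851 to 1.02). The integrated stress response list, which holds the genes around eIF2 phosphorylation, had 11 of 17 intervals above 1 and 3 below, with a median of 0.12. Its highest gene was Atf4, the transcription factor translated when eIF2 is phosphorylated, with 23768 and 26737 reads and a fold of 1.15 (1.13 to 1.17). Its lowest was the eIF2 kinase gene Eif2ak3 at 0.873 (0.825 to 0.924). These lists had counts above 1 well over the 24.2% of all listed genes.

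Without removal of the length and GC trend, the remaining lists lay nearer to equality. Their shares were 30.0% to 33.3% of intervals above 1 and 13.3% to 23.1% below, close to the 24.2% and 22.7% of all listed genes. Of 13 genes for poly(A) binding and partners of eIF4G, 4 had intervals above 1 and 3 below, with a median log2 fold of 0.00. The highest was the poly(A)-binding protein gene Pabpc4 at 1.18 (95% interval 1.15 to 1.21), and the lowest was Pdcd4, an inhibitor of eIF4A, at 0.905 (0.865 to 0.946). Of 15 genes of mTORC1 and S6 kinase signalling, 5 lay above 1 and 2 below, with a median of 0.02. They ran from Mtor, the kinase itself, at 0.935 (0.893 to 0.978), to Tbc1d7, a subunit of the TSC complex, at 1.30 (1.14 to 1.47). Of 10 measured genes for helicases, recycling and reinitiation 3 lay above 1 and 2 below, from Mcts1 at 0.917 (0.851 to 0.988) to Pelo, a ribosome rescue factor, at 1.15 (1.04 to 1.27). With the length and GC trend removed, the median log2 folds of these lists were 0.04, 0.04 and 0.06, in the order given. Beside them stood 0.08 for the stress response list, 0.12 for the elongation list and 0.01 for all listed genes, so the contrast with the stress response list was smaller.

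Beside the initiation factors, 79 of 83 cytosolic ribosomal protein genes had intervals above 1 and 0 below, with a median log2 fold of 0.12. Of 19 genes of cytosolic aminoacyl-tRNA synthetases, 17 had intervals above 1 and 0 below, with a median of 0.14. The gene of the glutamyl-prolyl synthetase was not among these 19. After removal of the length and GC trend, the medians were 0.07 for the ribosomal proteins, 0.12 for the synthetases and 0.08 for the initiation factors. Without that removal, the initiation factors were alone among these 3 groups in holding genes with intervals below 1. With it, Eif3a, among those genes, lay above 1, and intervals of the ribosomal proteins and the synthetases were not counted. With 1 library per group, the differences between the groups could not be tested.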

How the data were processed

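Both libraries came from total RNA of the labelled Tregs after co-culture. The authors deposited 1 table for both, holding mapped reads per gene, which per the file headers are counts that were not normalized. The other deposited columns, total-scaled and TMM-scaled values (unit signal) and log2 ratios, were not used for any result. Trimmomatic 0.39, BWA 0.7.17 and the builds mm8 and GRCm39 are named, without roles, per the submitters' processing notes. The counting step and its strand setting are not given in the sources used here. BWA is not splice-aware, so reads across exon junctions can be clipped or lost.

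The row of library totals was left out. Listed genes held 47724379 and 46938963 reads, and 0.782% and 0.764% of the totals belonged to no listed gene. The lowest control count of a listed gene is 100 reads, so genes rising from a low control level are not seen. CPM used edgeR 4.0.16 TMM factors (1.004 and 0.996) in R 4.3.3, and log2 folds used a prior count of 0.5. Genes needed 10 reads in both libraries together, which all 14774 met. No dispersion can be estimated from 1 library per group, so no quasi-likelihood test was fitted. Transcript lengths and GC content were those of the longest GENCODE M21 transcript by NCBI Gene ID, else symbol (13381 genes, 90.6%, all 52 members). The trend on length and GC was a quadratic least-squares fit over these genes. Intervals were computed in Python 3.11.15 with scipy 1.17.1 and tested on simulated data. The members, role groups, pathway lists and markers were chosen with earlier results of these data known. Every member may be named, and from each pathway list the highest and lowest gene whose reads in the libraries sum to 400 or more. The alternatives were total counts, size factors of DESeq2 1.42.0, upper-quartile scaling, other filters, folds, interval levels and prior counts, canonical factors only, and the length and GC trend. The splits by length and by abundance and the intervals with the trend removed were chosen after seeing the data.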

Additional observations from a re-analysis of the deposited data

How the results depend on the processing

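Under DESeq2 size factors, total counts and upper-quartile scaling, the median log2 fold of the 52 genes ran from 0.08 to 0.09, 32 to 35 intervals lay above 1 and 5 or 6 below, and none was 2-fold apart. With total counts and with the upper quartile, Eif2a, Eif2d and Eif2s3x came to include 1 and Eif2ak4 to lie below it, and no other named gene changed its side. With the 40 canonical factors only, 30 intervals (75%) lay above 1 and 3 (7.5%) below, beside 24.2% and 22.7% of all listed genes. With a 1.2-fold mark 2 genes passed. Among the 28 shorter transcripts, fewer genes than in the whole set, 22 intervals lay above 1. With the length and GC trend removed, Eif3a turned from below 1 to above it, at a log2 fold of 0.027, 18 further genes moved outside their own counting interval, Eif1a, Eif3e, Eif3j1 and Eif5b came to lie above 1, and Eif1b, Eif2b5, Eif2d and Eif3h to include it. No paired analysis was possible because each group has 1 library. The spread between cultures is unknown, so depth does not show which of these small gaps would recur.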

Other observations

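Other Y-linked genes were looked at beside Eif2s3y after its value was seen. Ddx3y, the Y-linked copy of an RNA helicase that also acts in initiation, had 4627 reads in the control library and 4058 in the knockdown library, a fold of 0.899 (95% interval 0.861 to 0.938). Uty, a Y-linked relative of a histone demethylase, stood at 0.931 (0.868 to 0.999). Kdm5d, another Y-linked demethylase gene, stood at 0.989, and its interval from 0.920 to 1.06 included 1. Of the 3 further Y-linked genes, 2 thus had intervals below 1, that of Uty only just, where 22.7% of all listed genes did so. With so few genes, looked at because Eif2s3y was lower at 0.918, this count is a description only.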
